A study of Mus musculus with 12 samples.

Results

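The genes described here are 10 transcription factors that hold a B cell in its state or move it toward the antibody-secreting plasma cell, namely Prdm1, Xbp1, Irf4, Irf8, Pax5, Bcl6, Ebf1, Spib, Pou2af1 and Pou2f2. They were taken as every noncontrol probe whose RefSeq accession belongs to a listed symbol, which gave 10 of 20018 genes with a RefSeq symbol and 12 of 55681 noncontrol probes, and all 12 were among the 30731 probes tested. Pax5 and Pou2f2 each have 2 probes and the other 8 genes have 1, so each gene is reported by its probe with the highest mean and the second probe is given beside it.

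RNA came from follicular zone B cells of the spleen, the recirculating B cells of its follicles, which the labels place in C57BL/6J mice, all males. The 4 groups of 3 arrays were WT cells at 0 h, WT cells after 24 h of culture with 10 µg/mL anti-IgM Fab', which binds the B cell receptor, Bach2-/- cells at 0 h and Bach2-/- cells after the same 24 h. The stated aim was to follow how Bach2-/- follicular B cells respond to the receptor, given their poor proliferation, and no group was cultured for 24 h without anti-IgM, so time in culture and stimulation cannot be told apart. The labels do not say that replicates came from separate animals or cultures, and the p-values then cover the spread of these arrays alone, and that may be technical.

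B cell identity and plasma cell fate are held by factors that repress each other's programs. Pax5, Ebf1, Bcl6 and Bach2 keep B cell genes on and plasma cell genes off, while Blimp-1, the product of Prdm1, shuts down Pax5, Bcl6 and the class II regulator Ciita, and Xbp1 expands the secretory apparatus. Irf4 serves both sides depending on its amount, Irf8 and Spib oppose plasma cell formation, and the octamer factor Oct-2 (Pou2f2) with its coactivator OBF-1 (Pou2af1) acts at immunoglobulin and other lymphoid promoters. Bach2 itself represses Prdm1, in part through sites of the kind that AP-1 also binds.

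The 250 bases before the annotated start of Prdm1 are printed because this gene differed most between the genotypes, and those of Pou2f2 because it was the only member called for the difference between the genotypes' responses with the replicate block. Both come from RefSeq, build GRCm38.p6, are written 5′ to 3′ on the gene's own strand, and end at the base before the start. Capitals mark the matches to motifs searched on both strands. The Prdm1 window is chr10:44458749-44458998 and the Pou2f2 window chr7:25132461-25132710, both on the minus strand.
Prdm1: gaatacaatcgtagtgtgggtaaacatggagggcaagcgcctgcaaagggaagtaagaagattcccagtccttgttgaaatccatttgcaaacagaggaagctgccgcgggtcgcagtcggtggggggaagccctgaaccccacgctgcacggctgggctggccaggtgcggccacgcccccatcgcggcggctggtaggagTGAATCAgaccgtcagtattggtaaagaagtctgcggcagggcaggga
Pou2f2: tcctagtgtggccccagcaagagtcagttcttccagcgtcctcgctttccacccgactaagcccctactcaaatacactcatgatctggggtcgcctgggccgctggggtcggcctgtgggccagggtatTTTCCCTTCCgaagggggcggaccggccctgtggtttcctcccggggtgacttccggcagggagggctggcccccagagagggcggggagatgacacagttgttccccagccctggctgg

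In the Prdm1 window the capitals mark TGAATCA, a match to TGANTCA, the AP-1 type core that also lies inside longer elements bound by Bach2 and its small Maf partners, at -48 to -42 from the start. This motif was found in 6.75% of 32851 promoter windows of the same length and in 1 of the 10 members. In the Pou2f2 window they mark TTTCCCTTCC at -120 to -111, which read on the other strand is GGAA, 2 bases of any kind and GAAA, the composite element that Irf4 or Irf8 binds with PU.1 or Spi-B. That motif was in 2.3% of windows and in 2 members, the other being Bcl6. The octamer ATTTGCAT was in none of the members' 13 windows and in 1.6% of all, and TTCCNGGAA, a STAT and Bcl6 type element, was in 1 member, again Bcl6, and in 0.913% of all. A match describes the letters of these windows and was not tested as a site.

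Levels are given as log2 of the scanner's processed signal relative to the 75th percentile of its own array, so 0 is a signal at that percentile, and the levels of different probes are not set against each other. Arrays 2 and 3 of every group lay on 1 slide and array 1 of every group on another, scanned apart. The 75th percentile of the signal ran from 87.4 to 307 over the 12 arrays, lowest on array 2 of the Bach2-/- 24 h group. Array 1 of the Bach2-/- 0 h group was not above background for the Y-linked genes Eif2s3y and Ddx3y, which the other 11 arrays measured, although all mice are labelled male, and Xist was above background with both of its probes on all 4 arrays numbered 1 and on array 3 of the Bach2-/- 0 h group. Results that change without Bach2-/- 0 h array 1 and Bach2-/- 24 h array 2 are given with and without them. Xbp1, Irf4, Irf8, Pax5, Ebf1, Pou2af1 and Pou2f2 (reported probes) were highest on array 1 in every group. The offset of array 1 from the mean of arrays 2 and 3, averaged over the groups, was 0.93 for Pou2af1 and -0.40 for Prdm1, the extremes among members, and 0.19 for the median probe. Arrays of the same replicate number deviated together, but array 1 had its own slide, so number and slide are not fully separated. For the members a fit with the replicate number as a block is given wherever it changes a call. For the gene lists its counts of calls are given by genotype, and for the responses where they move by over 1.5 times.

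The deleted gene behaved as labelled on its reported probe. Bach2 read 3.99, 3.40 and 3.69 in WT cells at 0 h and 1.33, 0.96 and 1.10 in Bach2-/- cells, and at 24 h it read 3.71, 3.22 and 3.68 against 0.15, -0.85 and 0.06. At 0 h the difference was -2.56 ± 0.30 (SE), with an adjusted p of 0.00232. At 24 h it was -3.75 ± 0.30 (adjusted p = 5.77e-05, limma with Benjamini-Hochberg adjustment over 30731 probes). Its second probe was above background in 6 of 6 WT and 0 of 6 Bach2-/- arrays.

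Prdm1 was the member set apart by genotype, before and after stimulation. It encodes Blimp-1, the repressor that plasma cells require. In WT cells it read -1.84, -1.51 and -0.99 at 0 h and -3.12, -2.10 and -1.45 at 24 h. In Bach2-/- cells it read 2.16, 1.81 and 1.85 at 0 h and 2.71, 2.42 and 3.01 at 24 h. Every Bach2-/- array lay above every WT array, and the order of the group means was WT 24 h, WT 0 h, Bach2-/- 0 h, Bach2-/- 24 h, with the 2 WT groups overlapping and the 2 Bach2-/- groups not. The genotype difference was 3.39 ± 0.39 (SE, n = 3 against 3) at 0 h, a 10.5-fold difference (95% confidence interval 2.53 to 4.24 on the log2 scale, adjusted p = 0.00179). At 24 h it was 4.94 ± 0.39, a 30.7-fold difference (4.08 to 5.79, adjusted p = 5.04e-05). The call held under all 25 settings tried at either time, with 2.53 to 3.62 at 0 h and 3.45 to 5.32 at 24 h.

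On the reported probes Prdm1 was the only member called between the genotypes at 0 h (1 of 10), where 0.625% of all probes were called. The same held at 24 h (1 of 10), where 2.71% were, but the second probe of Pou2f2 was also called then, as given below. The change of Prdm1 with stimulation had opposite signs in the genotypes and did not pass the test in either. The 24 h change was -0.78 ± 0.39 in WT (adjusted p = 0.197) and 0.77 ± 0.39 in Bach2-/- cells (adjusted p = 0.267), each with the same sign in 3 of 3 pairs. With the replicate block and both arrays of doubt left out, both changes were called, at -0.78 (adjusted p = 0.0382) and 1.33 (adjusted p = 0.0265). The difference between these changes was 1.55 ± 0.55 (95% confidence interval 0.34 to 2.76, adjusted p = 0.510, or 0.0763 under the replicate block).

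**Figure D1:**
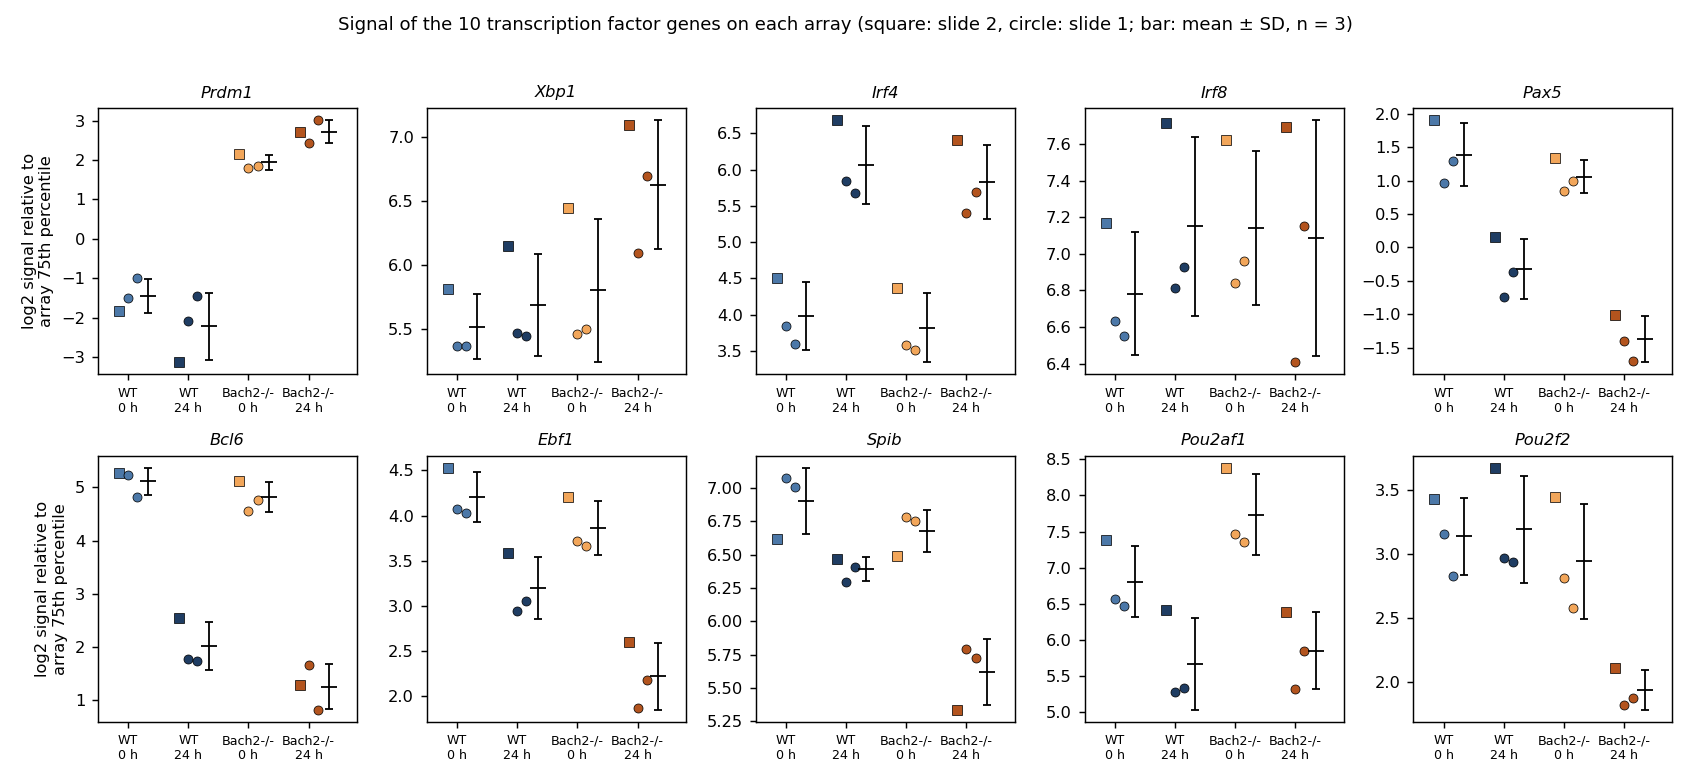
Log2 signal relative to the array's 75th percentile (vertical axis, its range differing between panels) for the reported probe of each of the 10 genes on each of the 12 arrays, by group (horizontal axis), with squares for slide 2, circles for slide 1 and a bar for the mean ± SD of 3 arrays. Prdm1 sits between 1.81 and 3.01 on the 6 Bach2-/- arrays and between -3.12 and -0.99 on the 6 WT arrays, while Bcl6 drops from 4.55 or more at 0 h to 2.55 or less at 24 h in both genotypes.

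Cells of a type and RNA per cell cannot be told apart in such bulk samples, so markers of plasma cells were read beside Prdm1. The summed scaled signal of 4 plasma cell markers that are not members (Jchain, Sdc1, Mzb1 and Tnfrsf17) ranged from 52.0 to 101 in WT and 129 to 307 in Bach2-/- cells at 0 h, and from 22.4 to 73.2 and 80.0 to 164 at 24 h, so the genotypes did not overlap. Mzb1, a chaperone gene of the secretory pathway, supplied 82.9 to 97.0% of this sum on the 12 arrays. Its own difference, Bach2-/- minus WT, was 1.35 ± 0.50 at 0 h (adjusted p = 0.570, or 0.00758 under the replicate block) and 1.60 ± 0.50 at 24 h (adjusted p = 0.157, or 0.00117 under the replicate block). Without Mzb1 the sums were 5.83 to 10.9 in WT and 15.9 to 52.4 in Bach2-/- cells at 0 h, while the 24 h sums were 1.32 to 2.18 in WT and 8.01 to 10.3 in Bach2-/- cells. Jchain, the joining chain of secreted immunoglobulin, was higher in Bach2-/- cells by 3.44 ± 0.43 at 24 h (adjusted p = 0.00103). At 0 h its difference was 1.78 ± 0.43 (adjusted p = 0.131, or 0.0374 under the replicate block). Sdc1, the plasma cell surface proteoglycan CD138, differed by -0.88 ± 0.61 at 0 h and 0.27 ± 0.61 at 24 h and was not called. Tnfrsf17, the survival receptor BCMA, was above background on 2 of 3 arrays of Bach2-/- cells at 0 h and on 0 of 3 in each other group. Over time Jchain fell in both genotypes (-3.38 ± 0.43 in WT, adjusted p = 0.000321, and -1.71 ± 0.43 in Bach2-/-, adjusted p = 0.0203). The part of plasma cells in the Prdm1 difference was not tested.

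Other marker sets also moved with genotype. The summed signal of 10 erythroid and platelet markers was 9.0 to 18.1 in WT and 34.7 to 103 in Bach2-/- cells at 0 h, and 3.07 to 4.22 and 12.5 to 35.5 at 24 h, with 0 of 7 tested called at 0 h (4 higher under the replicate block) and 4 higher at 24 h. Gata1, called under the block at 0 h, and Pf4, called at 24 h, passed the filter on dim probes only through Bach2-/- groups. Gata1 was above background on 1 of 3 WT arrays at 0 h and Pf4 on 0 of 3 at 24 h. The summed signal of 8 B-1 cell markers was 42.8 to 78.3 in WT and 73.6 to 94.4 in Bach2-/- cells at 0 h, with 4 of 8 called higher in Bach2-/- cells, and 56.4 to 61.8 and 139 to 158 at 24 h, with 5 of 8 called higher. Of those 5, Ctla4 passed the filter only through the Bach2-/- 24 h group and was above background on 0 of 3 WT arrays at 24 h. Of all probes 0.625% were called at 0 h and 2.71% at 24 h. Among marginal zone markers, 4 of 9 were called higher and 0 lower at 0 h, and 3 higher and 4 lower at 24 h. Follicular B cell markers overlapped at 0 h, 563 to 748 in WT and 536 to 861 in Bach2-/- cells, and were 165 to 320 and 79.9 to 154 at 24 h. No defining marker of these 4 sets was below background on every array. Sums for T cell, macrophage and monocyte, neutrophil and dendritic cell markers overlapped between the genotypes at both times except T cell markers at 24 h, 17.0 to 22.8 in WT and 25.6 to 40.1 in Bach2-/- cells. Single genes of these sets moved where the sums overlapped. The neutrophil markers had a median difference between Bach2-/- and WT cells of 2.29 at 0 h and 2.85 at 24 h, with 0 of 9 called at either time and 3 higher and 0 lower under the replicate block at each (Mpo, Ltf and Camp, then Ltf, Camp and Ngp). Mpo, Ngp and Retnlg, which all enter these medians, passed the filter only through Bach2-/- groups. Mpo was above background on 0 of 3 WT arrays at 0 h and Ngp on 2 of 3 at 24 h. In the macrophage and monocyte set Ms4a7 was higher in Bach2-/- cells at both times, by 3.16 ± 0.38 before stimulation (adjusted p = 0.00237) and by 2.72 ± 0.38 after it (adjusted p = 0.00215). Lyz2 was higher at 24 h by 2.81 ± 0.55 (adjusted p = 0.0195), with 2 of 3 WT arrays above background. In the dendritic cell set 2 of 8 were called higher and 2 lower at 24 h. NK cell markers were 9.76 to 13.8 in WT and 16.0 to 18.8 in Bach2-/- cells at 0 h and overlapped at 24 h. Klrk1 and Xcr1, of the NK and dendritic sets, were above background on no array. The B-1 set holds Bhlhe41 and Ptpn22, which are named again among the genes described later. The part of these cells in the members' differences was not tested.

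Xbp1, the factor of the unfolded protein response that builds the secretory apparatus, was not called between the genotypes at 24 h in the reported fit. It was called there with the replicate block. It read 5.81, 5.37 and 5.37 in WT and 6.45, 5.46 and 5.50 in Bach2-/- cells at 0 h. At 24 h it read 6.15, 5.47 and 5.44 against 7.09, 6.10 and 6.70. The lowest Bach2-/- array at 24 h lay below the highest WT array, which was on the other slide, but within each replicate number Bach2-/- was higher. The difference was 0.28 ± 0.35 at 0 h and 0.94 ± 0.35 at 24 h (adjusted p = 0.272, or 0.00741 under the replicate block). With quantile normalization and no block the 24 h difference was 1.14 and was called (limma, adjusted p = 0.0331). The 24 h change was 0.17 ± 0.35 in WT and 0.83 ± 0.35 in Bach2-/- cells (adjusted p = 0.176, or 0.00473 under the replicate block). Without the 2 arrays of doubt the change in Bach2-/- cells was 1.42 (adjusted p = 0.0185).

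Irf4 rose with stimulation by nearly the same amount in both genotypes. This factor is induced by B cell receptor signals and is needed, at high amounts, for plasma cells. In WT cells it read 4.51, 3.84 and 3.60 at 0 h and 6.68, 5.84 and 5.68 at 24 h, and in Bach2-/- cells 4.37, 3.58 and 3.52 and then 6.40, 5.40 and 5.69. The 0 h and 24 h groups did not overlap within either genotype, and the genotypes overlapped at both times. The rise was 2.08 ± 0.39 in WT, 4.24-fold (adjusted p = 0.00322), and 2.01 ± 0.39 in Bach2-/- cells, 4.03-fold (adjusted p = 0.00438). The difference between these rises was -0.07 ± 0.55, with a 95% confidence interval of -1.27 to 1.13. With the replicate block its standard error was 0.20.

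Irf8, a close relative of Irf4 that favours the B cell and germinal center states, had overlapping readings in all 4 groups. They were 7.17, 6.63 and 6.55 in WT at 0 h, 7.71, 6.81 and 6.93 in WT at 24 h, 7.62, 6.84 and 6.96 in Bach2-/- at 0 h, and 7.69, 6.41 and 7.15 in Bach2-/- at 24 h. Array 1 was the highest in each. None of its 5 comparisons passed the test, with or without the replicate block, but with the block and both arrays of doubt left out the change in WT did (0.37, adjusted p = 0.0448). The change in WT was 0.37 with a 95% confidence interval of -0.46 to 1.20, and that in Bach2-/- cells -0.06 with -0.89 to 0.77, so changes of that size are not shown to be absent.

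Pax5, which sets and holds B cell identity, fell in both genotypes. Its reported probe read 1.90, 0.97 and 1.30 in WT at 0 h and 0.16, -0.74 and -0.36 at 24 h, and in Bach2-/- cells 1.33, 0.85 and 1.00 and then -1.01, -1.40 and -1.70. The genotypes overlapped at 0 h, and at 24 h every Bach2-/- array was below every WT array. The fall was -1.70 ± 0.32 in WT (adjusted p = 0.00357) and -2.43 ± 0.32 in Bach2-/- cells (adjusted p = 0.000361). At 24 h the genotype difference was -1.05 ± 0.32, a 2.08-fold lower signal, which missed the test (adjusted p = 0.143) and passed with the replicate block (adjusted p = 0.00339).

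The second Pax5 probe, above background on 2 of 3 Bach2-/- arrays at 24 h, gave the same order. It fell by -1.36 ± 0.36 in WT (adjusted p = 0.0194) and -2.54 ± 0.36 in Bach2-/- cells (adjusted p = 0.000509). Its genotype difference at 24 h was -1.42 ± 0.36 (adjusted p = 0.0622, or 0.00778 under the replicate block). The 2 probes correlated at r = 0.98 over the 12 arrays, which share slides and groups.

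Bcl6, the repressor that opposes Prdm1 and directs the germinal center, made the largest change with stimulation among the members in both genotypes. It read 5.27, 5.23 and 4.82 in WT at 0 h and 2.55, 1.77 and 1.74 at 24 h. In Bach2-/- cells it read 5.11, 4.55 and 4.77 and then 1.28, 1.66 and 0.82. The 0 h genotypes overlapped, and at 24 h the highest Bach2-/- array lay just below the lowest WT array. The fall was -3.09 ± 0.31 in WT, 8.52-fold (adjusted p = 6.23e-05), and -3.56 ± 0.31 in Bach2-/- cells, 11.8-fold (adjusted p = 1.70e-05). The genotype difference at 24 h was -0.77 ± 0.31 (adjusted p = 0.319, or 0.0433 under the replicate block), being -1.27 on slide 2 and -0.51 on slide 1. With slide in place of the replicate number as the block, its adjusted p was 0.0543.

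Ebf1, which acts with Pax5 early in the lineage and remains on in mature B cells, fell as well. It read 4.53, 4.07 and 4.03 in WT at 0 h and 3.59, 2.95 and 3.06 at 24 h, and in Bach2-/- cells 4.21, 3.72 and 3.66 and then 2.61, 1.87 and 2.19. The 24 h genotypes did not overlap, and the 0 h genotypes did. The fall was -1.01 ± 0.29 in WT (adjusted p = 0.0279) and -1.64 ± 0.29 in Bach2-/- cells (adjusted p = 0.00236). The WT call was lost when any of 5 WT arrays was left out (all but array 1 at 24 h), with adjusted p from 0.0537 to 0.0959, and without the filter on dim probes (0.0647). At 24 h Bach2-/- cells were lower by -0.98 ± 0.29 (adjusted p = 0.124, or 0.00148 under the replicate block), within a narrow range of -1.07 to -0.87 over the 3 pairs.

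**Figure D2:**
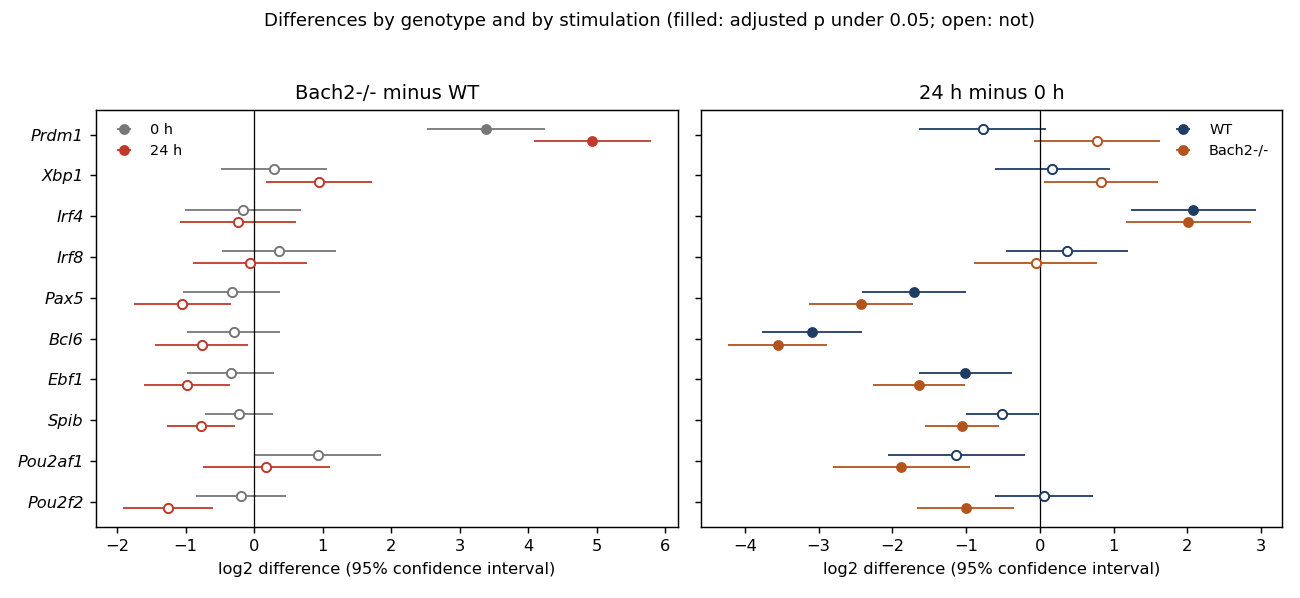
Log2 differences (horizontal axis, with 95% confidence intervals) of the reported probe of each gene, for Bach2-/- minus WT at 0 h and 24 h (left) and for 24 h minus 0 h in WT and Bach2-/- cells (right), filled where the adjusted p is under 0.05. Prdm1 is the only filled gene on the left, at 3.39 and 4.94, and on the right Irf4 lies at 2.08 and 2.01 while Bcl6 lies at -3.09 and -3.56.

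Spib encodes an Ets factor that partners with Irf4 and Irf8 and restrains plasma cell formation. It read 6.62, 7.08 and 7.01 in WT at 0 h, 6.47, 6.30 and 6.41 in WT at 24 h, 6.49, 6.78 and 6.76 in Bach2-/- at 0 h, and 5.34, 5.79 and 5.73 in Bach2-/- at 24 h. The last group lay below all other arrays. Spib fell by -1.06 ± 0.23 in Bach2-/- cells (adjusted p = 0.00857), a call lost with only the compared groups fitted (adjusted p = 0.0635). In WT the change was -0.51 ± 0.23 (adjusted p = 0.144, or 0.0209 under the replicate block). At 24 h the genotype difference was -0.77 ± 0.23 (adjusted p = 0.123, or 0.0105 under the replicate block).

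Pou2af1, the coactivator of the octamer factors that germinal center formation requires, differed in the opposite direction at 0 h. It read 7.38, 6.57 and 6.47 in WT and 8.38, 7.47 and 7.35 in Bach2-/- cells. The ranges overlapped between 7.35 and 7.38, array 1 being the highest of each group, and the excess was 1.00, 0.89 and 0.88 in the 3 pairs. The difference was 0.92 ± 0.42 (adjusted p = 0.807, or 0.0142 under the replicate block). With the block and both arrays of doubt left out it was 0.89 (adjusted p = 0.0585).

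By 24 h Pou2af1 read 6.41, 5.27 and 5.33 in WT and 6.39, 5.31 and 5.85 in Bach2-/- cells, and these groups overlapped (0.18 ± 0.42). It fell by -1.88 ± 0.42 in Bach2-/- cells (adjusted p = 0.0113), and this call was lost without the 2 arrays of doubt (-1.29, adjusted p = 0.0937). In WT the change was -1.14 ± 0.42 (adjusted p = 0.0825, or 0.000349 under the replicate block).

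Pou2f2, the gene for the octamer factor Oct-2, was called lower with stimulation in Bach2-/- cells and was not called in WT cells. It read 3.43, 3.16 and 2.83 in WT at 0 h and 3.67, 2.97 and 2.94 at 24 h, and in Bach2-/- cells 3.44, 2.81 and 2.57 and then 2.11, 1.82 and 1.88. The stimulated Bach2-/- arrays lay below all 9 others, which overlapped. The change was 0.05 ± 0.30 in WT and -1.01 ± 0.30 in Bach2-/- cells (adjusted p = 0.0479). The call in Bach2-/- cells was fragile: it was lost without the 2 arrays of doubt (-0.70, adjusted p = 0.206), with normexp background correction (0.0730), without the filter on dim probes (0.102), with only the compared groups fitted (0.115) and in the authors' deposited series table (0.0504). Leaving out any array but 1 (array 1 of the WT 24 h group) also ended it.

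The second Pou2f2 probe read 2.11, 2.46 and 2.36 in WT at 0 h and 2.99, 2.36 and 2.49 at 24 h, and in Bach2-/- cells 2.30, 2.05 and 1.80 and then 1.20, 0.63 and 0.91. Its fall in Bach2-/- cells was -1.14 ± 0.26 (adjusted p = 0.0120). At 24 h its genotype difference was -1.70 ± 0.26, 3.25-fold, which passed the test (adjusted p = 0.00389), whereas the reported probe had -1.26 ± 0.30 (adjusted p = 0.0521, or 0.000958 under the replicate block). The 2 probes differ in call but not in direction, and they correlated at r = 0.92 over the 12 arrays. The difference between the 24 h changes in the genotypes was -1.06 ± 0.43 on the reported probe (adjusted p = 0.610, or 0.0370 under the replicate block) and -1.44 ± 0.37 on the second (adjusted p = 0.221, or 0.0299 under the replicate block). With the block and both arrays of doubt left out, that of the reported probe was -0.95 (adjusted p = 0.153).

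**Figure D3:**
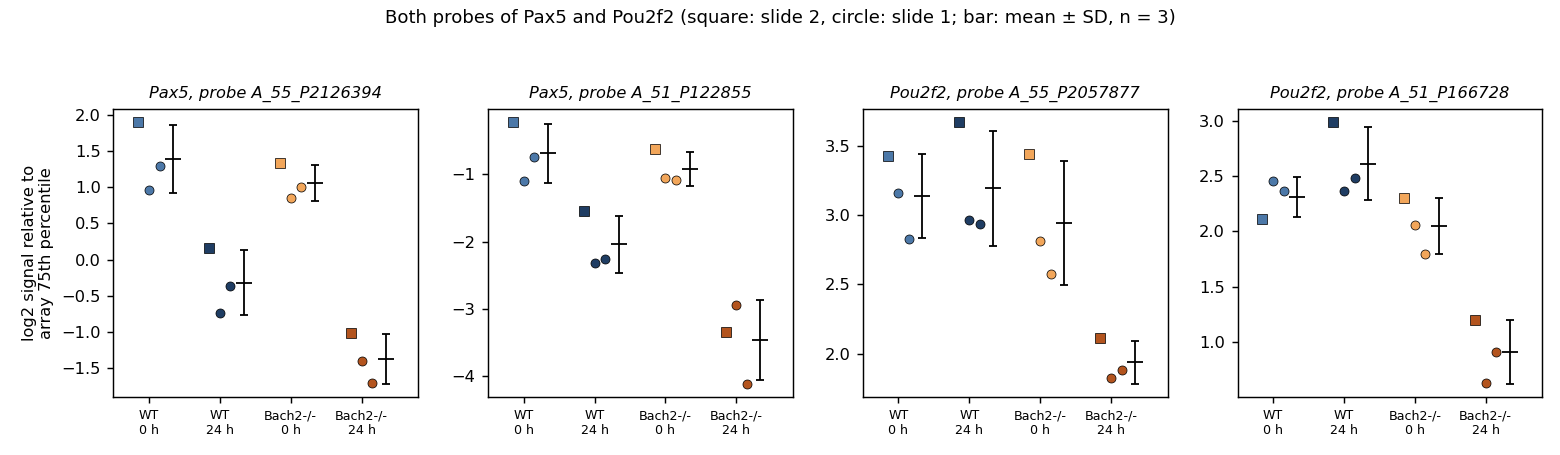
Log2 signal relative to the array's 75th percentile (vertical axis, its range differing between panels) of both probes of Pax5 and of Pou2f2 on each array, by group (horizontal axis), with squares for slide 2, circles for slide 1 and a bar for the mean ± SD of 3 arrays. On each of the 4 probes the 3 stimulated Bach2-/- arrays lie below every other array.

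Counted together, 4 of 10 members were called with stimulation in WT cells (Irf4 higher, and Pax5, Bcl6 and Ebf1 lower), where 20.6% of all probes were called. In Bach2-/- cells 7 of 10 were called (Irf4 higher, and Pax5, Bcl6, Ebf1, Spib, Pou2af1 and Pou2f2 lower), where 13.3% of all probes were. With the replicate block the counts were 6, of 45.9% of all probes, and 8, of 32.7%. The median change of the members was -0.64 in WT and -1.03 in Bach2-/- cells, against 0.03 and 0.07 over all probes. The 0 h and 24 h groups did not overlap for 6 of 10 members in WT, against 38.5% of all probes, and for 8 of 10 in Bach2-/- cells, against 25.6%.

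Between the genotypes at 24 h, the replicate block raised the count on the reported probes from 1 to 7 of 10, where 17.3% of all probes were called. Xbp1 joined Prdm1 as higher, and Pax5, Bcl6, Ebf1, Spib and Pou2f2 were lower in Bach2-/- cells. The same 7 genes were called when the 2 arrays of doubt were also left out, a setting chosen after seeing the data. At 0 h the block raised it from 1 to 2, with 3.19% of all probes called. Groups did not overlap for 6 of 10 members at 24 h, against 15.3% of all probes, and for 1 of 10 at 0 h, against 12.4%. Without the block, 7 of 10 members had an unadjusted p under 0.05 at 24 h and 1 of 10 at 0 h. For these and the other counts of unadjusted p in this report the share of all probes was not computed, so they cannot be set against a background.

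No member was called for the difference between the 24 h changes in Bach2-/- and WT cells, where 0.299% of all probes were. In limma's fit 2 of 10, Prdm1 and Pou2f2, had an unadjusted p under 0.05, a count without a share of all probes beside it. With the block Pou2f2 alone was called, where 3.58% of all probes were. The difference was negative for 8 of 10 members, with a median of -0.51 against -0.07 over all probes, and positive for Prdm1 and Xbp1.

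**Figure D4:**
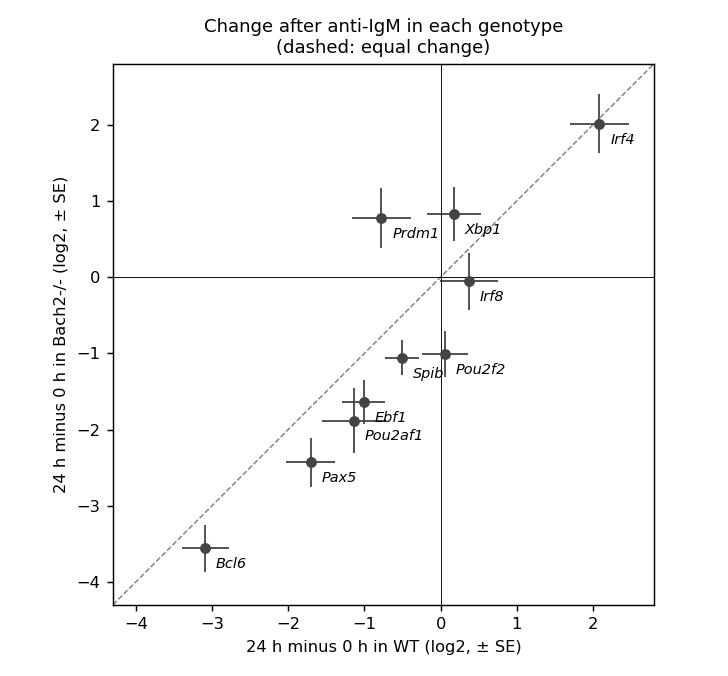
Change from 0 h to 24 h in WT (horizontal axis) against that in Bach2-/- cells (vertical axis), log2 with standard errors, 1 point for each gene's reported probe, and a dashed line where both changes are equal. Prdm1 and Xbp1 lie above the line, Irf4 lies close to it at 2.08 and 2.01, and the other 7 lie below it, Pou2f2 farthest at 0.05 and -1.01.

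Other B-lineage transcription factors, a list of 30 with 29 tested, had 2 calls by genotype at 0 h and 7 at 24 h. That is 6.90% and 24.1% of those tested, beside 0.625% and 2.71% of all probes. The list holds Bach2, the deleted gene, whose call at both times follows from the design and raises these shares. At 0 h Bhlhe41, a transcriptional repressor that is also in the B-1 marker set, was higher in Bach2-/- cells by 2.36 ± 0.27 (adjusted p = 0.00194). Bach2 was the only gene of the list called lower. At 24 h 2 were higher, Bhlhe41 by 2.43 and Zeb2, a zinc finger repressor, by 1.84, and 5 were lower, Bach2, Klf2 (-1.43), Runx3 (-1.32), Klf3 (-1.30) and Stat5a (-1.05). The replicate block gave 3 higher and 2 lower at 0 h, and 6 higher and 11 lower at 24 h, where it called 3.19% and 17.3% of all probes. With stimulation 6 were called higher and 10 lower in WT, and 5 higher and 9 lower in Bach2-/- cells, the latter being 7 and 15 under the block. Without the block that is 55.2% of those tested in WT and 48.3% in Bach2-/- cells, beside 20.6% and 13.3% of all probes. In Bach2-/- cells the block called 32.7% of all probes. Klf2, which keeps lymphocytes quiescent and guides their homing, fell by 3.65 in WT and by 5.24 in Bach2-/- cells. Ets1, which restrains plasma cell formation, fell by 2.36 and by 3.08. Bhlhe40 rose by 2.08 and 2.44, and Tcf4, which encodes the E protein E2-2, by 2.12 and 1.79. The list's median genotype difference was 0.02 at 0 h and -0.26 at 24 h, against 0.02 and -0.06 over all probes.

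Genes of B cell identity, many of them known targets of Pax5 or Ebf1, were not called by genotype at 0 h, when 0 of 30 passed limma's test and 2 had an unadjusted p under 0.05. With the replicate block 1, Cr2, was lower at 0 h (-1.04, adjusted p = 0.00604). At 24 h 4 were lower and 0 higher in Bach2-/- cells: the complement receptor gene Cr2 by -2.06 ± 0.27 (adjusted p = 0.00130), Cd24a by -1.71, the kinase gene Syk by -1.51 and the adaptor gene Bank1 by -1.35. These 4 are 13.3% of those tested, beside 2.71% of all probes, or 17.3% of all probes under the block. Under the block 12 were lower and 4 higher at 24 h, the higher ones being the class II gene H2-Aa (1.35, adjusted p = 0.000201), Cd74 (0.75, adjusted p = 0.0124), Cd180 (0.76, adjusted p = 0.0146) and Ciita. With stimulation 16 fell and 1 (Pik3ap1) rose in WT, and 18 fell and 1 rose in Bach2-/- cells. That is 56.7% and 63.3% of those tested, beside 20.6% and 13.3% of all probes. Vpreb3 fell by 4.57 and by 5.61, Cr2 by 3.99 and by 5.01, and Fcer2a, the gene of CD23, by 3.05 and by 3.42. Cd79a, a signaling chain of the receptor, fell by 1.66 and by 1.77 and did not differ between the genotypes beyond its error (0.05 ± 0.24 at 0 h and -0.07 ± 0.24 at 24 h). The list's median genotype difference was 0.02 at 0 h and -0.34 at 24 h.

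Ciita, the class II regulator that Blimp-1 is known to repress, could be read only within slides. Slide 1 gave 3.67 and 3.70 in WT and 3.66 and 3.78 in Bach2-/- cells at 0 h. After stimulation the same slide gave 0.76 and 0.83 in WT and 3.05 and 2.04 in Bach2-/- cells. Slide 2 gave, for WT and then Bach2-/- cells, -1.78 and -1.77 at 0 h and -5.04 and -4.06 at 24 h. Of these, the WT reading of -5.04 was not well above background and lay below the lowest signal that was on its array (-4.84). On both slides the 24 h readings were below the 0 h readings of the same genotype, and at 24 h those of Bach2-/- cells were above those of WT cells. The standard error without a block was 2.33, and with the replicate block the 24 h genotype difference of 1.49, which uses that reading, had an adjusted p of 0.00941. On slide 1 alone the difference was 1.75.

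Germinal center genes, 12 listed and 11 tested, moved in both directions. At 0 h Mybl1, a Myb family factor of germinal center cells, cleared background on 3 of 3 Bach2-/- but only 1 of 3 WT arrays and was called higher in Bach2-/- cells (adjusted p = 0.00161). Its measured difference of 3.36 uses WT readings that mostly were not well above background. At 24 h it cleared background on 0 of 3 WT and 2 of 3 Bach2-/- arrays, and the bound on its excess was 1.65-fold. The Bach2-/- mean in this bound includes 1 reading that was not well above background. Limma's adjusted p of 0.00597 belongs to the measured readings and does not test the bound. Mybl1 passed the filter only through the Bach2-/- 0 h group. Mef2b, a cofactor at Bcl6 targets, was lower at 24 h by -1.25 ± 0.28 (adjusted p = 0.0393). A bound sets the mean of the bright group against each dim array's lowest signal well above background. The replicate block left 1 higher and 0 lower at 0 h, and at 24 h 2 were higher and 4 lower. Without the block the calls were 9.09% of those tested at 0 h and 18.2% at 24 h, beside 0.625% and 2.71% of all probes. The block called 3.19% and 17.3% of all probes. With stimulation 6 fell and 2 (Ezh2 and Mef2b) rose in WT, and 6 fell and 1 (Ezh2) rose in Bach2-/- cells. That is 72.7% and 63.6% of those tested, beside 20.6% and 13.3% of all probes.

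Plasma cell program genes, 35 listed and 33 tested, were called in 1 direction by genotype. The list was chosen with earlier results of these data known. Its calls were 6.06% of those tested at 0 h and 18.2% at 24 h, beside 0.625% and 2.71% of all probes. Most of all called probes were also higher in Bach2-/- cells, 84.4% at 0 h and 73.1% at 24 h. At 0 h 2 were higher in Bach2-/- cells and 0 lower, the surface genes Ly6c1 (2.38 ± 0.29, adjusted p = 0.00267) and Cd9 (1.62 ± 0.30, adjusted p = 0.0369). At 24 h 6 were higher and 0 lower: Jchain (3.44), Ly6c1 (3.25), Cd9 (2.96), the elongation factor gene Ell2 (1.93), Tent5c (1.85) and Cd28 (1.41). Under the replicate block 6 were higher and 0 lower at 0 h, and 17 higher and 0 lower at 24 h. Of all probes, the block called 3.19% and 17.3%, of which 74.5% and 42.8% were higher in Bach2-/- cells. None of the 6 called at 24 h without the block is a chaperone or translocon gene of the kind Xbp1 is known to drive, while the 17 include the endoplasmic reticulum genes Manf (1.25), Hyou1 (0.68) and Creld2 (0.92). With stimulation 4 were called higher and 5 lower in WT, and 6 higher and 4 lower in Bach2-/- cells, and under the block 10 and 11, and 14 and 6. Without the block that is 27.3% of those tested in WT and 30.3% in Bach2-/- cells, beside 20.6% and 13.3% of all probes. Under the block 45.9% and 32.7% of all probes were called. Listed genes called higher in Bach2-/- cells without the block included the endoplasmic reticulum genes Hyou1 (1.34), Creld2 (1.38), Manf (1.30) and Hspa5 (1.06), and in WT the translocon-associated genes Ssr1 (1.35) and Ssr4 (1.71). None of the listed genes in the 4 lists was called for a difference between these responses in limma's fit, where 6, 3, 8 and 5 had an unadjusted p under 0.05 in the B cell, germinal center, transcription factor and plasma cell lists. Those counts have no share of all probes beside them. The block called 5 (1 higher, H2-Aa), 2 (0 higher), 6 (0 higher) and 3 (3 higher) in the same order, with 3.58% of all probes called. The list's median genotype difference was 0.24 at 0 h and 0.55 at 24 h, against 0.02 and -0.06 over all probes. Markers of erythroid, B-1 and plasma cells moved with genotype in these samples as given above, and Cd9 is also a marginal zone marker.

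**Figure D5:**
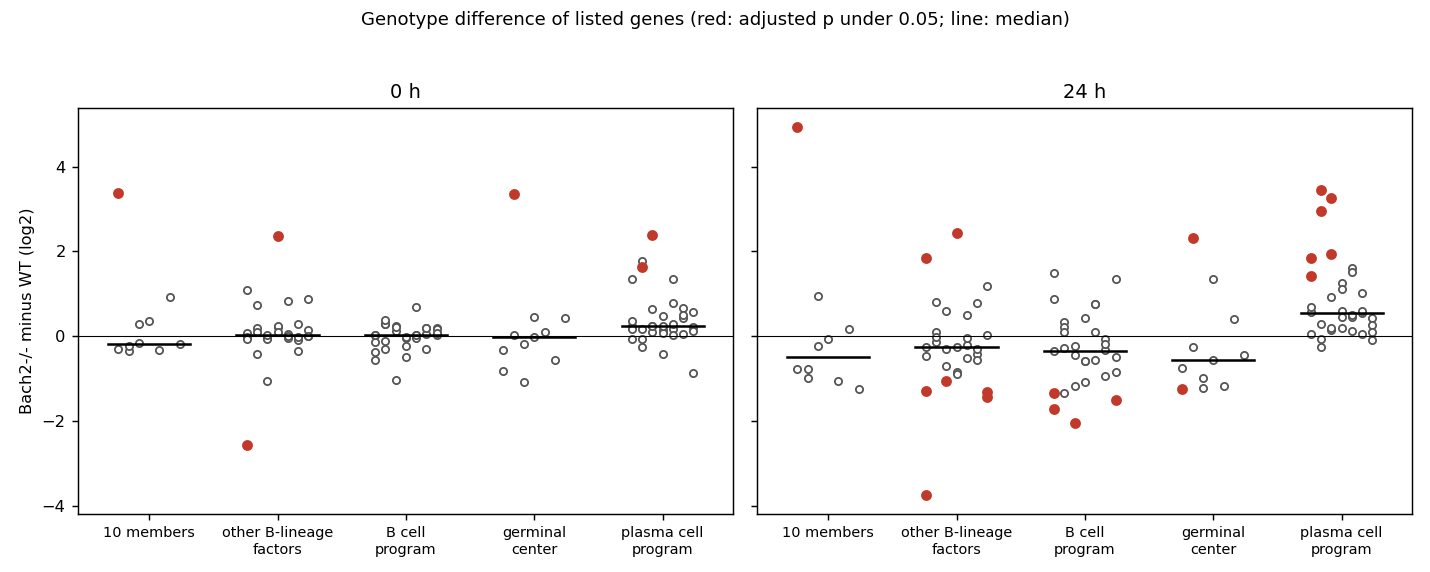
Log2 difference between Bach2-/- and WT cells (vertical axis) for each reported gene of the 10 members and of the 4 lists (horizontal axis), at 0 h (left) and 24 h (right), red where the adjusted p is under 0.05, with a line at each list's median. At 24 h the red points of the plasma cell program lie at 1.41 to 3.44 and those of the B cell program at -2.06 to -1.35.

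The genes most like a member over the 12 arrays were found by Pearson's r among 13125 genes with a RefSeq symbol, as a description, since all arrays share the same groups and slides. Closest to Prdm1 were the long noncoding RNA gene Morrbid (r = 0.97), the phosphatase gene Ptpn22 (0.97) and Rbm47 (0.96). Morrbid was well above background on 0 of 3 arrays in each WT group. In Bach2-/- cells it was so on 3 of 3 arrays at 0 h and 2 of 3 at 24 h. Its r thus rests in part on background readings. Rbm47 had group means of -1.99 and -2.02 in WT at 0 h and 24 h and 1.65 and 3.22 in Bach2-/- cells. Closest to Irf4 were Rcan1, Lrmp and Lck (0.98 to 0.99), and closest to Bcl6 were Cyp4f18, Rab3a and Ceacam2 (0.99 to 1.00). Pax5 was closest to Fyco1, the chemokine receptor gene Cxcr5 and Ganc (all 0.99). Irf8 was closest to B3galnt2, Ufsp2 and Tmco6 (0.98 to 0.99), whose group means, like those of Irf8, differed by less than 0.5 and which separated by slide.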

How the data were processed

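RNA of 12 samples in 4 groups of 3 (genotype and time, from the labels) was hybridised with Cy3, 1 sample per array. The authors used Agilent Feature Extraction 10.7.3.1, per the submitters' processing notes, and the deposited scanner files hold the processed signal, an intensity, with background already subtracted per the file headers, beside median signal and background intensities and quality flags. The sources do not give the scale or centring of the log2 values in the deposited series table. They correlated at r 0.999 to 1.00 with the log2 values computed here after each probe was centred, and served as an alternative (column medians -0.27 to 0.50). Its order of steps stays unknown.

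Control and outlier spots (112 to 511 per array) were left out, spots of a probe were averaged, and signals were divided by the array's 75th percentile, floored at 0.01 and taken to log2. Probes well above background on all 3 arrays of a group were kept (30731 of 55681, 50.9 to 66.7% of spots per array being above background). RefSeq accessions named 26413 probes through a table of assembly GRCm38.p6, and 29268 were not named by it. The array annotation is on another build, so no probe coordinates are given. No member probe was saturated or missing on an array.

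In R 4.3.3, limma 3.58.1 fitted a mean for each group to the kept probes of the 12 arrays, with 5 contrasts, Benjamini-Hochberg adjustment over 30731 probes and a threshold of 0.05, 2-sided. The fit was tested on simulated data for the 0 h genotype contrast alone. The noise there was independent between arrays, without the shared deviations of these slides, so that test does not cover them. An exact permutation of 3 arrays against 3 can give no p below 0.1. The number of arrays limits the precision. Deviations from group means correlated at r 0.45 to 0.88 in 18 pairs of arrays with the same replicate number. They correlated at 0.24 to 0.63 for other numbers on the same slide and at -0.80 to -0.40 across slides. Number 1 had a slide of its own, so its pairs do not separate number from slide. On the other slide same-number pairs ran from 0.45 to 0.73, which overlaps the other numbers there. The numbers were taken to pair the arrays, but the evidence for this beyond slide is limited.

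The members, gene lists and marker lists were chosen with earlier results of these data known. Named are all members, Bach2, the members of the 4 lists that passed the test (of more than 6, examples among the 6 with the largest change), and always Cd79a, Ciita, Sdc1, Jchain and Tnfrsf17; some genes covered by this rule or by the marker sets are not reported here. Marker sets were those of follicular, marginal zone and B-1 B cells, plasma cells, T cells, NK cells, macrophages and monocytes, neutrophils, dendritic cells, and erythroid cells and platelets. Alternatives were quantile normalization, normexp background correction (offset 50), 2 other filters, 2 gene-level fits, replicate and slide blocks, slide 1 alone, only the compared groups, the deposited table, and leaving out each array or the 2 arrays of doubt.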

Additional observations from a re-analysis of the deposited data

Results flagged for a closer look

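The 24 h change of Prdm1 had opposite signs in the genotypes in every pair of arrays. In WT cells it was -0.78, with -1.28, -0.59 and -0.47 in the 3 pairs. In Bach2-/- cells it was 0.77, with 0.56, 0.61 and 1.16. The test of the difference between these changes gave 1.55 ± 0.55 (limma, adjusted p = 0.510), and 0.0763 with the replicate block, so the difference did not pass the test. Over 24 settings its adjusted p ranged from 0.0763 to 0.936 and its value from 0.93 to 2.11, always positive. No explanation was tested.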

How the results depend on the processing

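The 3 arrays per group and their spread over 2 slides limit the precision, and the replicate block lowered the standard error of a member, that of Ebf1 from 0.29 to 0.13 for example. It changed no call of the members other than those given in the report. Of the member values under alternatives, 1136 kept direction and side of the threshold, 49 passed it newly, 24 no longer passed and 31, none called in the fit reported, changed sign.

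Members called at 24 h between genotypes (1 of 10) were 4 with quantile normalization, 2 with 1 probe per gene or the mean of a gene's probes, 7 with the replicate block, 6 with the slide block, 3 on slide 1 alone and 7 with the replicate block and both arrays of doubt left out, a setting chosen after seeing the data. At 0 h (1) they were 2 with either block, for the response in WT (4) 8 with the block and both arrays of doubt left out, and for the difference of responses (0) 1 with either block. Leaving out each array gave 1 to 1 at 0 h, 1 to 2 at 24 h, 3 to 5 for WT, 6 to 7 for Bach2-/- and 0 to 0 for the difference.

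Sign changes with quantile normalization were Irf4 (0.028) and Irf8 (0.16) by genotype at 24 h, Xbp1 (-0.30), Irf8 (-0.13) and Pou2f2 (-0.19) for the change in WT, and Irf4 for the difference of changes (0.32). On slide 1 alone Pou2f2 in WT was -0.040. With both arrays of doubt left out Xbp1 at 0 h was -0.038, Irf8 at 24 h 0.27, Irf8 in Bach2-/- cells 0.52, and the difference of changes 0.41 for Irf4 and 0.15 for Irf8; with the replicate block as well, Irf8 was 0.14 and 0.17 and Irf4 0.050. Leaving out single arrays gave ranges that cross 0 for Irf4 by genotype at 0 h (-0.43 to 0.10) and 24 h (-0.52 to 0.073) and in the difference of changes (-0.36 to 0.24), for Irf8 by genotype at 24 h (-0.37 to 0.27) and in Bach2-/- cells (-0.36 to 0.28), for Xbp1 at 0 h (-0.038 to 0.45) and in WT (-0.060 to 0.32), for Pou2af1 at 24 h (-0.089 to 0.55) and for Pou2f2 in WT (-0.19 to 0.20). The cause of these changes was not tested.

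Over all probes the fit called 192, 834, 6344, 4080 and 92 in the order 0 h, 24 h, WT, Bach2-/- and difference of responses. With the replicate block it called 979, 5323, 14103, 10052 and 1100, with the slide block 884, 4406, 13522, 9358 and 931, with normexp 84, 389, 4062, 2630 and 40, and with the replicate block without the arrays of doubt 516, 2374, 15052, 8392 and 295. Counts that moved by over 1.5 times elsewhere were 95, 417 and 28 (0 h, 24 h, difference) for probes above background on all 12 arrays, 108, 349 and 2652 (0 h, 24 h, Bach2-/-) with only the compared groups fitted, 121 at 0 h without the arrays of doubt, and, leaving out single arrays, down to 81 at 0 h, 434 at 24 h, 3876 in WT and 42 for the difference. The share called higher at 24 h was 73.1%, against 42.8% with the replicate block, 43.7% with the slide block and 59.7% with the replicate block without the arrays of doubt. For the difference of responses it was 82.6%, against 41.5%, 42.9% and 66.8% in that order and 72.2% with quantile normalization, so either block turned the majority in both comparisons.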
